A study of Rattus norvegicus with 115 samples.

Results

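Granulocyte colony-stimulating factor (G-CSF, Csf3), its receptor and a set of neutrophil and acute-phase genes were followed in rat mammary tumours under blockade of PD-L1, of the TGF-beta receptor TGFBR1, or of both. The set holds 9 of the 17455 genes in the count table: Csf3, Csf3r, Cxcr2, S100a8, S100a9, Cxcl1, Il1b, Lcn2 and Lbp. Its members were chosen by name, with earlier results of these data known. They are described over 2 classes of column of the table, each column being 1 sequenced library of sorted tumour cells. Columns with at least 300 CPM (counts per 1000000 of the column's total) of Ptprc, the gene of the leukocyte antigen CD45, are called leukocyte columns. Columns with under 150 CPM of Ptprc and at least 300 CPM of the epithelial adhesion gene Epcam are called epithelial columns. The classes were therefore cut from measured values, and levels in 1 class against the other are given as a description, with no test.

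Tumours were raised in virgin Sprague Dawley rats by 1 to 3 intraperitoneal injections of the carcinogen N-nitroso-N-methylurea (NMU) at 50 mg/kg, at an age of 35 to 53 days, and all tumours described here carry this exposure. In the treatment experiment, rats with palpable tumours received an anti-PD-L1 antibody together with the TGFBR1 inhibitor LY2157299 (galunisertib), the antibody alone, the inhibitor alone, or vehicle. A separate group of rats had tumours without treatment. The epithelial class held 13 columns of 6 combination rats, 16 of 7 anti-PD-L1 rats, 8 of 4 inhibitor rats, 14 of 7 vehicle rats and 10 of 8 rats with untreated tumours. The leukocyte class held 8 columns of 6 combination rats, 8 of 5 anti-PD-L1 rats, 7 of 5 inhibitor rats, 12 of 8 vehicle rats and 9 of 7 rats with untreated tumours. Another 2 columns fell in neither class. The rat was the replicate, since treatment was given to the rat, and counts of a rat's columns were summed within a class.

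A column is named by its tumour and not by its sorted fraction. For 13 columns the labels leave a single fraction, and all 9 named CD45 fell in the leukocyte class, while the 3 named DN (double negative) and the 1 named Ep fell in the epithelial class. For 15 of 115 samples, from 7 tumours, the authors' sample list names another fraction than its read-file name does, and 0 of these 13 columns belong to them. The epithelial class thus takes in more than 1 sorted fraction. In epithelial columns the summed level of 9 fibroblast genes ran from 13.6 to 84219 CPM over rats, beside 5450 to 38451 CPM for 11 luminal epithelial genes. The total count per column ran from 2353564 to 29727437, so that 3 counts correspond to between 0.101 and 1.27 CPM. Libraries came from 3 batches, with treated and vehicle rats in batches 2 and 3, and untreated tumours in batch 1 apart from 1 epithelial column in batch 3. The untreated tumours therefore cannot be told apart from their batch and were not tested against the others.

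G-CSF is the cytokine that drives the making of neutrophils in bone marrow and their release into blood, acting through the receptor encoded by Csf3r. Neutrophils then follow chemokines such as CXCL1 into tissue through the receptor CXCR2, and S100a8 and S100a9 encode calprotectin, the most abundant protein of their cytosol. Interleukin-1 beta (Il1b), made by macrophages and neutrophils, switches on NF-kB in epithelial and stromal cells, and Csf3, Cxcl1 and Lcn2 are among the genes that NF-kB is known to induce. Lcn2 (lipocalin 2, which withholds iron from bacteria) and Lbp (lipopolysaccharide-binding protein) are acute-phase genes, and Lcn2 is also expressed in mammary epithelium. In tumour models G-CSF is known for the expansion of immature neutrophils, and TGF-beta for its effects on tumour-associated neutrophils.

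Promoters are shown for 3 members whose levels moved with those of other members, Cxcl1 and Lcn2 in epithelial columns and Il1b in leukocyte columns. They are the 250 bases before the gene's start in the RefSeq table of build GRCr8, read 5′ to 3′ on the strand of the gene, and capitals mark each match, on either strand, to an NF-kB type motif of GGG, any 3 bases and TTCC. Of the 9 members, 6 matched an entry of that table (Csf3r, Cxcr2, S100a9, Cxcl1, Il1b and Lcn2).
Cxcl1 (chr14:17479322-17479571, minus strand): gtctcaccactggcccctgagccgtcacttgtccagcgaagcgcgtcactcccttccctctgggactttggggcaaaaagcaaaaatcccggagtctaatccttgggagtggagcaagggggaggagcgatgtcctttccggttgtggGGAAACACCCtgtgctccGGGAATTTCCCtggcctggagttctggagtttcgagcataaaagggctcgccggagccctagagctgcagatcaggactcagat
Lcn2 (chr3:36081781-36082030, minus strand): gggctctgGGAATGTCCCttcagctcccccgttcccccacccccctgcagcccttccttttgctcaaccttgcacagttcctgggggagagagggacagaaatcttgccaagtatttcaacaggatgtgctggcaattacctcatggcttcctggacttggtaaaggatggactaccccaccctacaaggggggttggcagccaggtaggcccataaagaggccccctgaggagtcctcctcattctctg
Il1b (chr3:137036582-137036831, minus strand): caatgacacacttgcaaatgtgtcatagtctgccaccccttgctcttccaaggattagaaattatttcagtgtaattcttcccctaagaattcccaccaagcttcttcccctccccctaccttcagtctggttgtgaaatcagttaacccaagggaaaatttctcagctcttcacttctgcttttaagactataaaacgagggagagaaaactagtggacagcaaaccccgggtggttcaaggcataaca

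The Cxcl1 window held 3 matches, read as GGAAACACCC, GGGAATTTCC and GGAATTTCCC, of which the last 2 overlap on opposite strands at 84 to 75 and 83 to 74 bases before the start. The Lcn2 window held 1, at 242 to 233 bases before the start. The windows of Csf3r, Cxcr2, S100a9 and Il1b held none, which says only that these letters are not in them. Of 33469 rat promoters of the same length, 1516 (4.53%) held the motif, and 0.0209% held at least 3 matches. A match is a description of the letters and not of binding.

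The ligand and acute-phase genes were read mainly in epithelial columns and the receptors, calprotectin genes and Il1b mainly in leukocyte columns. Csf3 had a median of 23.5 CPM over 61 epithelial columns, of which none was at 0, against 0.334 CPM over 44 leukocyte columns, of which 15 were at 0. Cxcl1 had a median of 2085 CPM in epithelial and 222 CPM in leukocyte columns. Lcn2 had 1273 CPM in epithelial and 10.1 CPM in leukocyte columns, and Lbp 1038 CPM in epithelial and 5.02 CPM in leukocyte columns. Every epithelial column lay above the leukocyte median of Csf3, Lcn2 and Lbp. Epcam, which was used to cut the classes, still had rat medians of 17.6 to 28.5 CPM in the leukocyte columns of the 5 groups. The part of epithelial RNA in the leukocyte values of Csf3, Cxcl1, Lcn2 and Lbp was not tested.

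Csf3r had a median of 7.03 CPM in leukocyte columns, against 0.0881 CPM in epithelial columns, where 28 of 61 were at 0. Cxcr2 had 7.26 CPM in leukocyte columns, against 0.0726 CPM in epithelial columns, where 29 of 61 were at 0. S100a8 had 15.1 CPM in leukocyte and 0.963 CPM in epithelial columns, and S100a9 had 46.1 CPM in leukocyte and 1.64 CPM in epithelial columns. Il1b had 249.5 CPM in leukocyte columns, against 4.89 CPM in epithelial columns, and every leukocyte column lay above the epithelial median.

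The same division was found within tumours. The 34 tumours counted include the 3 columns named P22T2, which could be matched to rat P22 and not to a tumour. Over 34 tumours of 26 rats with both classes of column, Csf3, Lcn2 and Lbp were higher in the epithelial column of 33 tumours, the exception being tumour C9T1, an untreated tumour. Cxcl1 was higher in the epithelial column of 31 tumours. Csf3r, S100a8, S100a9 and Il1b were higher in the leukocyte column of 32 tumours, and Cxcr2 in that of 28. Without the P22T2 columns, 33 tumours were left, and each of these counts was lower by 1. The exceptions for Il1b were P21T1 and P28T1, whose epithelial columns had 130.7 and 123.0 CPM of Il1b and 66.2 and 124 CPM of Ptprc, and whose leukocyte columns had 91.2 and 19.6 CPM of Il1b. Cxcr2 was also higher in the epithelial columns of these tumours, with 3.59 CPM in epithelial against 1.06 CPM in leukocyte columns of P21T1 and 3.43 against 0.0669 CPM in P28T1.

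**Figure D1:**
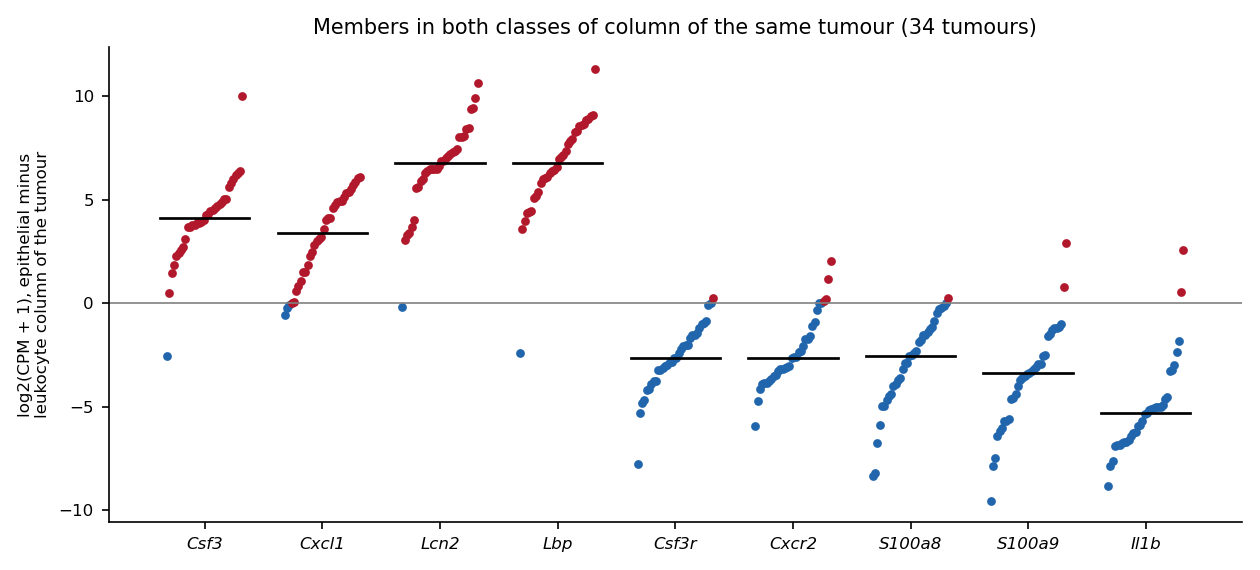
Difference of log2(CPM + 1) between the epithelial and the leukocyte columns of the same tumour for the 9 members, 1 point per tumour in order of size, with the median as a line. Points above 0 (red) are higher in the epithelial column: 33 of 34 tumours for Csf3, Lcn2 and Lbp and 31 for Cxcl1, while 32 of 34 lie below 0 for Csf3r, S100a8, S100a9 and Il1b.

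Csf3, the G-CSF ligand, differed widely between rats of the same treatment. Summed per rat, epithelial Csf3 ran from 5.35 to 803 CPM with a median of 18.6 CPM in combination rats, and from 6.26 to 255 CPM with a median of 37.7 CPM in anti-PD-L1 rats. The 4 inhibitor rats had 13.7, 38.4, 51.6 and 471 CPM. Vehicle rats ran from 3.14 to 1725 CPM with a median of 16.3 CPM, and untreated tumours from 23.1 to 1151 CPM with a median of 208 CPM. Each treated group and the vehicle group held rats at the low and at the high end, and all of these groups overlapped. The order of the group medians among treated and vehicle rats, inhibitor, anti-PD-L1, combination and vehicle, stood within that overlap.

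The rats with the highest epithelial Csf3 were P10 (vehicle), C11 (untreated), P33 (combination), C2 (untreated) and P17 (inhibitor), at 1725, 1151, 803, 509 and 471 CPM. Their fibroblast gene sums were 3464, 171, 15869, 84219 and 25945 CPM. Libraries of the same tumour were closer than those of different rats: the 2 epithelial columns of a tumour differed in Csf3 by a median of 0.47 on the log2(CPM + 1) scale over 17 tumours, and 2 tumours of a rat by a median of 1.21 over 12 rats. Rats of the same condition differed by a median of 1.93 over 91 pairs of rats. Tumours of a rat could still differ widely, as in rat P36, where the epithelial column of tumour P36T3 had 36.6 CPM and those of P36T2 had 2.68 and 1.66 CPM.

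Cxcl1, the chemokine that draws neutrophils through CXCR2, ran in epithelial columns from 505 to 5371 CPM with a median of 1251 CPM in combination rats and from 490.4 to 6389 CPM with a median of 2478 CPM in anti-PD-L1 rats. The 4 inhibitor rats had 1408, 5992, 7233 and 8575 CPM. Vehicle rats ran from 403 to 19028 CPM with a median of 1176 CPM, and untreated tumours from 748 to 18006 CPM with a median of 5107 CPM. All 4 inhibitor rats lay above 5 of the 7 vehicle rats, and the 2 highest vehicle rats, P10 and P7, lay above all of them.

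Lcn2 had a median of 2488 CPM (661 to 5825) in combination rats, 1440 CPM (410.5 to 3760) in anti-PD-L1 rats and 769 CPM (410.3 to 2988) in vehicle rats. The 4 inhibitor rats had 648, 969, 2140 and 3461 CPM. Lbp had a median of 1427 CPM (334 to 2696) in combination rats, 786 CPM (144 to 2848) in anti-PD-L1 rats and 616 CPM (62.7 to 2492) in vehicle rats, and the inhibitor rats had 675, 732, 2299 and 2595 CPM. The medians of both acute-phase genes were lowest in vehicle rats among these 4 groups, while the ranges overlapped throughout. In untreated tumours Lcn2 had a median of 775 CPM (113 to 3826) and Lbp of 547 CPM (164 to 2605).

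**Figure D2:**
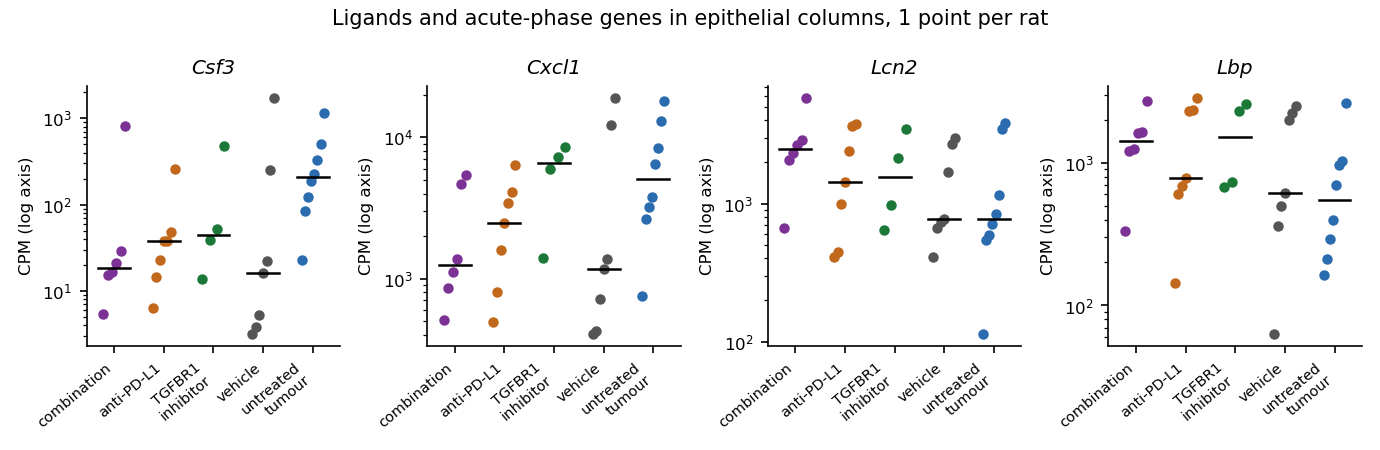
Csf3, Cxcl1, Lcn2 and Lbp in epithelial columns in CPM on a log axis, 1 point per rat and the group median as a line, for combination, anti-PD-L1, TGFBR1 inhibitor, vehicle and untreated tumours. Vehicle rat P10 stands at the top of the vehicle group for Csf3 (1725 CPM) and Cxcl1 (19028 CPM), and the groups overlap for all 4 genes.

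In the leukocyte columns the medians of the receptors and the calprotectin genes were lower in each treated group than in vehicle rats, with overlapping ranges. In bulk samples fewer neutrophils and less RNA of a gene per neutrophil cannot be told apart. Ptprc, used to cut the classes, ran in leukocyte columns from 680 to 1021 CPM in vehicle rats. It ran from 1137 to 1647 CPM in combination, 1133 to 1539 CPM in anti-PD-L1 and 996 to 1602 CPM in inhibitor rats. All combination and anti-PD-L1 rats thus lay above all vehicle rats in Ptprc. The part of this difference in the members' values was not tested. Csf3r ran from 1.91 to 13.5 CPM with a median of 4.998 CPM in combination rats. Anti-PD-L1 rats had 0, 4.18, 5.31, 16.7 and 17.7 CPM, and inhibitor rats had 0.793, 0.978, 5.39, 8.75 and 14.4 CPM. Vehicle rats ran from 3.60 to 41.2 CPM with a median of 17.1 CPM, so that each treated group overlapped the lower vehicle rats. Cxcr2 ran from 0.729 to 11.8 CPM with a median of 2.50 CPM in combination rats. Anti-PD-L1 rats had 0.0669, 5.50, 10.6, 11.4 and 24.4 CPM of Cxcr2, and inhibitor rats had 0, 1.06, 3.21, 8.08 and 18.2 CPM. Vehicle rats ran from 2.56 to 43.3 CPM with a median of 14.2 CPM.

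S100a8 ran from 5.74 to 37.8 CPM with a median of 16.9 CPM in combination rats. Anti-PD-L1 rats had 0, 4.30, 8.15, 34.5 and 204 CPM, and inhibitor rats had 0.793, 4.32, 12.7, 32.7 and 66.8 CPM. Vehicle rats ran from 15.005 to 909 CPM with a median of 58.3 CPM. S100a9 ran from 17.4 to 80.1 CPM with a median of 58.7 CPM in combination rats. Anti-PD-L1 rats had 1.27, 18.6, 36.4, 65.04 and 576 CPM of S100a9, and inhibitor rats had 2.73, 15.5, 38.3, 100.9 and 271 CPM. Vehicle rats ran from 40.7 to 1745 CPM with a median of 165 CPM. The upper vehicle rats, P4 and P7, had 1745 and 872 CPM of S100a9 and lay above every treated rat, while the lower vehicle rats lay among the treated ones.

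Il1b and Cxcl1 in leukocyte columns had overlapping ranges in treated and vehicle rats. Il1b ran from 45.2 to 2866 CPM with a median of 218 CPM in combination rats, and anti-PD-L1 rats had 19.6, 91.96, 143, 454 and 1315 CPM. Inhibitor rats had 91.2, 223, 251, 266 and 267 CPM, and vehicle rats ran from 130.5 to 765 CPM with a median of 297 CPM. Leukocyte Cxcl1 had a median of 148 CPM (8.34 to 2233) in combination rats and 307 CPM (62.8 to 1471) in vehicle rats. Combination rat P33 and anti-PD-L1 rat P24 held the highest Il1b of the treatment experiment and the highest leukocyte Cxcl1 of their groups, at 2233 and 1343 CPM. Their leukocyte columns also had 26.4 and 15.1 CPM of Csf3, among 0 to 32.6 CPM over all rats.

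In untreated tumours a single rat stood apart. The leukocyte column of tumour C9T1 had 36565 CPM of S100a9, 10296 CPM of S100a8, 277 CPM of Csf3r, 149 CPM of Cxcr2 and 4295 CPM of Il1b. The other 6 rats ran from 3.86 to 374 CPM of S100a9, from 0 to 10.8 CPM of Csf3r and from 248 to 3000 CPM of Il1b. The same rat had the lowest epithelial Csf3 and Cxcl1 of the 8 rats with untreated tumours, at 23.1 and 748 CPM. Its tumour C9T1 was the tumour in which leukocyte Csf3, at 26.3 CPM, exceeded epithelial Csf3, at 3.70 CPM. In rat C2 the leukocyte column had 3000 CPM of Il1b, 2786 CPM of Cxcl1 and 32.6 CPM of Csf3, with no count of Csf3r or Cxcr2.

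**Figure D3:**
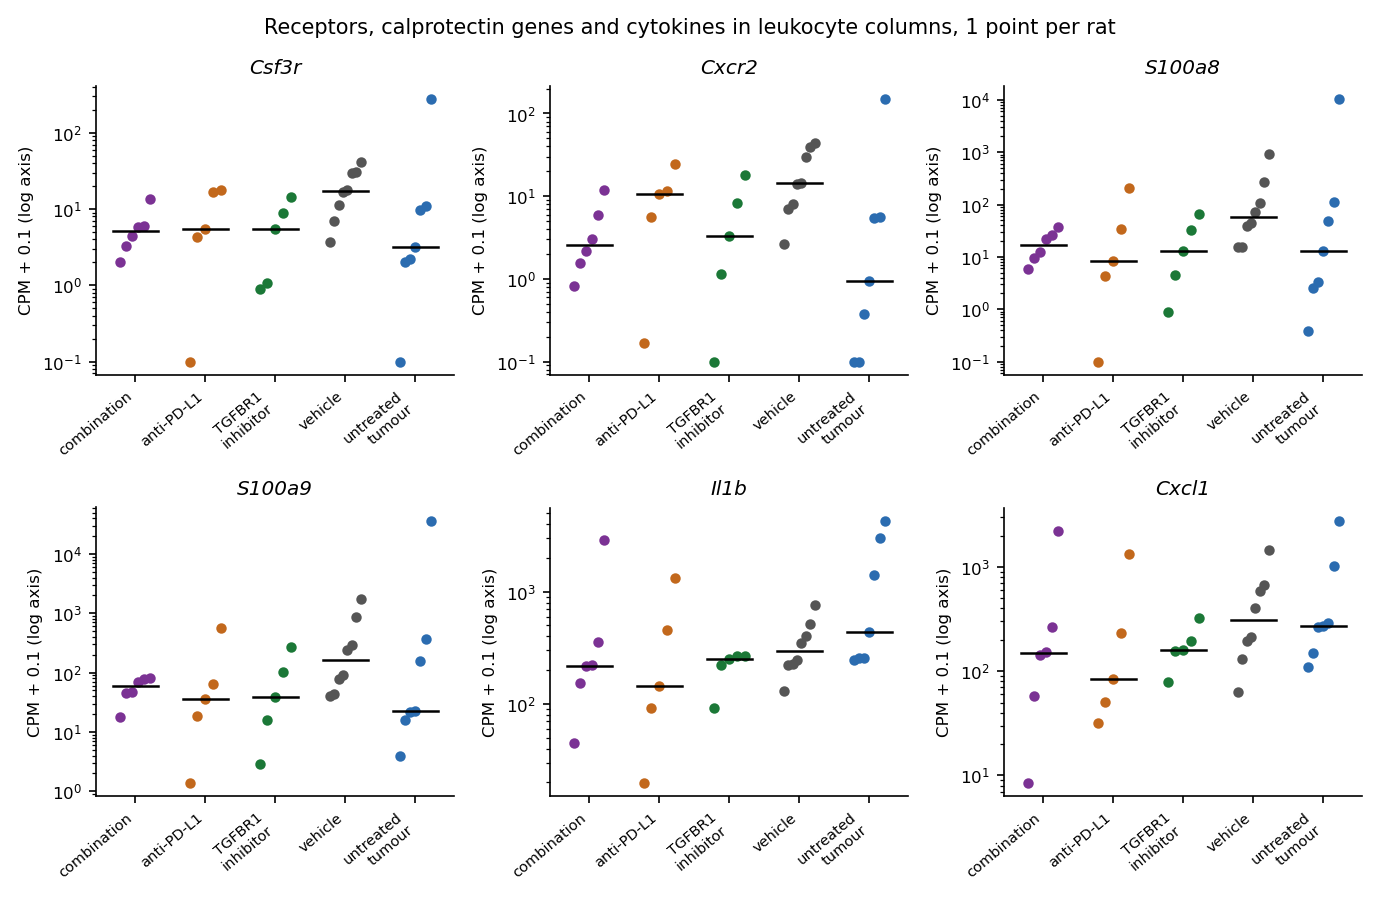
Csf3r, Cxcr2, S100a8, S100a9, Il1b and Cxcl1 in leukocyte columns as CPM + 0.1 on a log axis, 1 point per rat and the group median as a line. The medians of Csf3r, Cxcr2, S100a8 and S100a9 of the 3 treated groups lie below those of the vehicle group with overlapping ranges, and untreated rat C9 lies far above the rest for these 4 genes.

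Whether treatment changed the members was tested with edgeR's quasi-likelihood test over all genes, with Benjamini-Hochberg adjustment at 0.05 and vehicle rats as the reference of all 3 comparisons, which therefore share their controls. All 9 members passed the filter on low counts in both classes. No gene of 13614 passed in epithelial columns and none of 11932 in leukocyte columns, so the share called was 0% in each of the 6 comparisons, and 0 of 9 members passed. At an unadjusted p under 0.05 there were 752 genes for the combination, 368 for anti-PD-L1 and 850 for the inhibitor in epithelial columns, and 1869, 1407 and 2039 in leukocyte columns. DESeq2 on the same counts called 2, 0 and 12 genes in epithelial columns for the combination, anti-PD-L1 and the inhibitor, and 335, 153 and 414 in leukocyte columns. Without vehicle rat P7 the edgeR test called 42 genes for the combination and 297 for the inhibitor in leukocyte columns.

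For the leukocyte columns the fitted log2 fold changes of the receptors and calprotectin genes were all negative and none passed over all genes. Against vehicle, Csf3r had a log2 fold change of -1.91 (SE 0.780, edgeR adjusted p = 0.239) in combination, -1.24 (SE 0.807, adjusted p = 0.533) in anti-PD-L1 and -1.84 (SE 0.832, adjusted p = 0.264) in inhibitor rats. Cxcr2 had -2.38 (SE 0.931, adjusted p = 0.224) in combination, -0.99 (adjusted p = 0.679) in anti-PD-L1 and -1.79 (adjusted p = 0.348) in inhibitor rats. S100a8 had -3.41 (SE 1.24, adjusted p = 0.199) in combination, -1.90 (adjusted p = 0.532) in anti-PD-L1 and -3.14 (SE 1.32, adjusted p = 0.235) in inhibitor rats. S100a9 had -3.04 (SE 1.15, adjusted p = 0.211) in combination, -1.64 (adjusted p = 0.572) in anti-PD-L1 and -2.49 (adjusted p = 0.293) in inhibitor rats. With DESeq2 the combination values of S100a8 and S100a9 were -3.46 and -3.08 with adjusted p of 0.0499 and 0.0498, just inside its threshold, where edgeR's were outside. In leukocyte columns batch 2 held only 2 combination rats, beside 4 anti-PD-L1, 4 inhibitor and 4 vehicle rats. Batch 3 held 4 combination, 4 anti-PD-L1, 3 inhibitor and 6 vehicle rats. By batch, S100a9 in combination against vehicle rats had -3.54 in batch 2 alone and -1.19 in batch 3 alone, and in anti-PD-L1 against vehicle rats -2.63 in batch 2 and 0.71 in batch 3. S100a8 in anti-PD-L1 rats had -3.32 in batch 2 and 0.63 in batch 3. In combination rats S100a8 had -3.93 in batch 2 and -1.47 in batch 3. Cxcr2 had -0.47 in batch 2 and -3.33 in batch 3 in combination rats, and 0.087 in batch 2 and -2.14 in batch 3 in inhibitor rats. Single rats also moved these values: without anti-PD-L1 rat P24, S100a8 and S100a9 in anti-PD-L1 rats had -4.14 and -3.98, and without vehicle rat P4 they had -0.71 and -0.80. Without P4, S100a8 had -2.21 in combination and -1.97 in inhibitor rats. Cxcr2 had -2.77 in inhibitor rats without P19 and -1.61 in anti-PD-L1 rats without P27.

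Il1b in leukocyte columns had a log2 fold change of 1.01 (SE 0.820, edgeR adjusted p = 0.573) in combination, 0.12 (adjusted p = 0.972) in anti-PD-L1 and -0.84 (adjusted p = 0.674) in inhibitor rats. The combination value was -1.05 without rat P33, and the anti-PD-L1 value -1.14 without rat P24. Leukocyte Cxcl1 had 0.18 (adjusted p = 0.953) in combination, -0.49 (adjusted p = 0.882) in anti-PD-L1 and -1.50 (adjusted p = 0.515) in inhibitor rats, and the combination value was -2.11 without rat P33.

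In epithelial columns Csf3 had a log2 fold change of -1.27 (SE 1.49, edgeR adjusted p = 0.970) in combination, -2.59 (SE 1.48, adjusted p = 1.000) in anti-PD-L1 and -1.23 (SE 1.72, adjusted p = 0.920) in inhibitor rats, with negative signs although the group medians of the treated rats lay above that of vehicle rats. All 3 rested on vehicle rat P10, without which they were 1.55, 0.24 and 1.60, and whose single epithelial column is labelled DN. Without combination rat P33 the combination value was -4.41, and without inhibitor rat P17 the inhibitor value was -3.35. Cxcl1 had -1.30 (SE 0.947, adjusted p = 0.922) in combination, -1.06 (adjusted p = 1.000) in anti-PD-L1 and 0.06 (adjusted p = 0.991) in inhibitor rats. Without P10 these were -0.20, 0.036 and 1.15. Lcn2 had 0.85 (SE 0.631, adjusted p = 0.922), 0.30 (adjusted p = 1.000) and 0.31 (adjusted p = 0.949) in combination, anti-PD-L1 and inhibitor rats. Lbp had 0.17, 0.15 and 0.38 in the same order, with adjusted p of 0.998, 1.000 and 0.945. With these errors an effect of treatment on epithelial Csf3 was not detectable, and its absence is not shown. Epithelial Il1b had log2 fold changes of 1.298, 1.296 and 2.41 in combination, anti-PD-L1 and inhibitor rats (edgeR adjusted p = 0.947, 1.000 and 0.813). Its medians were 10.8, 4.16 and 29.6 CPM in the same order, and 7.03 CPM in vehicle rats. The anti-PD-L1 value was thus positive although the median of that group lay below that of vehicle rats. The highest anti-PD-L1 rat, P28, had 123 CPM of Il1b and 124 CPM of Ptprc, and its part in this value was not tested. The other members read mainly in leukocytes ran in epithelial columns from -3.97 for Csf3r to 2.16 for Cxcr2, both in inhibitor rats (edgeR adjusted p = 0.764 and 0.869). Levels were low: Csf3r there ran from 0 to 0.0866 CPM in inhibitor and from 0 to 1.64 CPM in vehicle rats. Epithelial Cxcr2 had medians of 0.264 CPM in inhibitor and 0.295 CPM in vehicle rats, and its highest inhibitor rat, P21, had 3.59 CPM. In leukocyte columns Csf3, Lcn2 and Lbp had log2 fold changes between -1.53 (Lbp, combination) and 1.16 (Csf3, combination), with edgeR adjusted p of 0.526 and 0.781 for these 2 values.

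**Figure D4:**
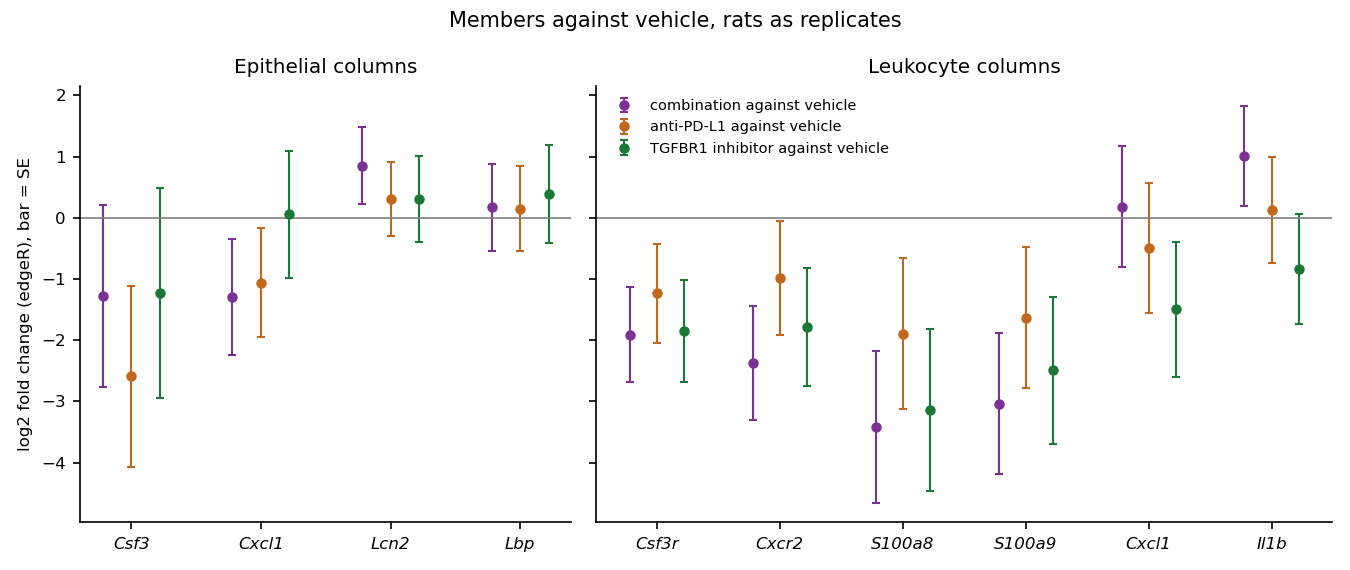
Log2 fold changes from edgeR with their SE for members in epithelial columns (left) and leukocyte columns (right) in combination, anti-PD-L1 and TGFBR1 inhibitor rats against vehicle rats. The receptors and calprotectin genes in leukocyte columns lie below 0 in all 3 comparisons, from -0.99 for Cxcr2 in anti-PD-L1 rats to -3.41 for S100a8 in combination rats, and no value passed over all genes.

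In the wider lists, chosen with earlier results known, no gene passed either. Of 28 neutrophil genes in the table, among them 4 members, 25 were tested in leukocyte columns, of which 0 passed. Below 0 were 22, 20 and 23 of them in combination, anti-PD-L1 and inhibitor rats, with median log2 fold changes of -1.91, -1.16 and -1.84, beside 0.01, -0.02 and 0.00 over all genes. Macrophage and monocyte genes lay on the same side: all 13 tested were below 0 in each comparison, with medians of -1.93, -2.15 and -2.18, and 0 passed. The summed level of the 14 macrophage genes in the table had a median of 1676 CPM (713 to 8326) in combination, 1895 CPM (186 to 3959) in anti-PD-L1, 1645 CPM (753 to 3536) in inhibitor and 7438 CPM (2517 to 20569) in vehicle rats. That of the 28 neutrophil genes had 1373 CPM (863 to 6262) in combination, 1496 CPM (315 to 4233) in anti-PD-L1, 2089 CPM (709 to 2598) in inhibitor and 6750 CPM (2162 to 11350) in vehicle rats. The lists share Lyz2, a gene of both cell types, whose rat median in leukocyte columns was 1885 CPM. The next highest medians of the neutrophil list were 65.04 CPM for S100a9 and 57.6 CPM for Il1r2. The neutrophil sum is therefore weighted towards Lyz2 and is not independent of the macrophage sum. The part of macrophage content in the members' values was not tested. T cell genes lay at 5235, 4387, 5246 and 4004 CPM as the medians of combination, anti-PD-L1, inhibitor and vehicle rats. Of 6 B cell genes tested there, 6, 6 and 5 lay above 0 in combination, anti-PD-L1 and inhibitor rats, and 0 passed. Their median log2 fold changes were 3.30, 3.28 and 2.05. Their summed level had medians of 116, 95.6 and 131 CPM in the same order, and 73.8 CPM in vehicle rats. Combination rats P31 and P36 had 754 and 807 CPM, and the next highest of that group, P23, had 133 CPM. Anti-PD-L1 rat P29 had 1246 CPM, and the next highest, P24, had 142 CPM. The part of P31, P36 and P29 in these fold changes was not tested. In epithelial columns 9, 7 and 9 of 9 fibroblast genes lay below 0, with medians of -2.002, -0.37 and -1.33, and 0 passed. The part of these cells in the members' values was not tested.

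Several genes that define neutrophils were at or near 0 in the leukocyte columns. Over the 31 rats with leukocyte columns, the chemokine receptor gene Cxcr1 was at 0 in 26, the surface marker gene Cd177 in 23, the formyl peptide receptor gene Fpr1 in 22 and the primary granule protease gene Elane in 13. The myeloperoxidase gene Mpo had a median of 0.589 CPM and reached 214 CPM, and Mmp8, a neutrophil collagenase, had a median of 0.803 CPM and reached 657 CPM. Trem1, a receptor of neutrophils and monocytes, had a median of 41.3 CPM and was never at 0.

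Of 17 genes of neutrophil ligands and growth factors in the table, 9 had a higher rat median in epithelial and 8 in leukocyte columns. Besides Csf3 and Cxcl1, epithelial columns held more Kitlg (stem cell factor), with a median of 182 CPM in epithelial and 5.41 CPM in leukocyte columns. Leukocyte columns held more Il17a, which acts upstream of G-CSF, with 33.4 CPM in leukocyte and 0.143 CPM in epithelial columns, and more Csf2 (GM-CSF), with 7.85 CPM in leukocyte and 0.731 CPM in epithelial columns. Of this list 16 genes were tested in epithelial columns, where 0 passed and 10, 12 and 5 lay below 0 in combination, anti-PD-L1 and inhibitor rats, with median log2 fold changes of -0.98, -0.29 and 0.08. In leukocyte columns 0 of 15 passed, and 5, 9 and 12 lay below 0.

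Of 28 genes of G-CSF and interleukin-1 signalling tested in both classes, 0 passed in any comparison. In leukocyte columns 23, 20 and 18 lay above 0 in combination, anti-PD-L1 and inhibitor rats, with median log2 fold changes of 0.31, 0.19 and 0.13, while Csf3r itself, a member of the list, was negative in all 3. The interleukin-1 receptor gene Il1r1 had a median of 7.501 CPM in epithelial and 2.10 CPM in leukocyte columns, whereas the decoy receptor gene Il1r2 had 57.6 CPM in leukocyte and 3.63 CPM in epithelial columns. Of the acute-phase list, 0 of 22 genes passed in epithelial columns, where 11, 12 and 10 lay below 0, and 0 of 17 in leukocyte columns. Of the 25 acute-phase genes in the table, 14 had a higher rat median in epithelial and 7 in leukocyte columns, and 4 had equal medians. Tf (transferrin), Cp (ceruloplasmin) and Steap4 joined Lcn2 and Lbp with higher medians in epithelial columns, at 4565, 387 and 231 CPM in epithelial and 353, 5.77 and 2.80 CPM in leukocyte columns. Slpi lay the other way, at 905 CPM in leukocyte and 21.6 CPM in epithelial columns. The liver acute-phase genes A2m and Crp had medians of 0 and 0.0424 CPM in epithelial columns. The list genes named in this and the preceding paragraphs were chosen after their values were seen.

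Members formed pairs within a class that moved together over the 24 treated and vehicle rats. Of 36 pairs in each class, 5 passed in epithelial and 7 in leukocyte columns by Spearman's rho (permutation test, two-sided, Benjamini-Hochberg over 36), all of them positive. The share of passing pairs among other genes was not computed, so these counts do not set the members apart. Besides the epithelial pairs below, Csf3r with S100a8, Csf3r with S100a9 and S100a8 with S100a9 passed there (rho 0.630, 0.600 and 0.970). These genes were low in epithelial columns, with Csf3r at 0 in 28 of 61. In epithelial columns Csf3 and Cxcl1 had Pearson's r of 0.849 and rho of 0.898 (permutation p = 1e-05 for each, the smallest that 100000 resamples can give, adjusted p = 0.00012 and 0.00018), and r was 0.851 without the 2 rats farthest from the median. Within batches rho was 0.934 in batch 2 (17 rats) and 0.911 in batch 3 (15 rats). Lcn2 and Lbp had r of 0.850 and rho of 0.776 (permutation p = 1e-05 and 2e-05, adjusted p = 0.00012 and 0.00024), r of 0.832 without 2 rats, and rho of 0.691 in batch 2 and 0.907 in batch 3. By contrast rho of Csf3 with Lcn2 over all 32 rats with epithelial columns was 0.11 and with Lbp 0.14, given as a description. Some rats had libraries in both batches.

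In leukocyte columns S100a8 and S100a9 had r of 0.979 and rho of 0.957 (permutation p = 1e-05 for each, adjusted p = 0.00012 and 0.00036), with r of 0.967 without 2 rats and rho of 0.991 and 0.907 in batches 2 and 3. Csf3r moved with Cxcr2 (r = 0.761, rho = 0.704, permutation p = 1e-05 and 0.00019, adjusted p = 0.00012 and 0.00137), with r of 0.726 without 2 rats and rho of 0.600 and 0.708 in batches 2 and 3. Csf3r moved also with S100a8 (r = 0.747, rho = 0.770, permutation p = 5e-05 and 3e-05, adjusted p = 0.00036 for both), with r of 0.684 without 2 rats and rho of 0.591 and 0.681 in batches 2 and 3. Cxcl1 and Il1b had r of 0.829 and rho of 0.805 (permutation p = 1e-05 and 2e-05, adjusted p = 0.00012 and 0.00036), with r of 0.746 without 2 rats and rho of 0.692 and 0.953 in batches 2 and 3. Leukocyte Csf3 and Cxcl1 had rho of 0.588 and Lcn2 and Lbp of 0.640 (adjusted p = 0.0148 and 0.00492, permutation test).

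Untreated tumours, which cannot be told apart from their batch, were included in the next ranking, and it was not repeated without them. The genes most like the members were taken by Spearman's rho over all rats with tumours, as a description. For epithelial Csf3, over 32 rats and 13343 genes, they were Itpkc (an inositol kinase, rho 0.91), Arf6 (a small GTPase, 0.90), Sod2 (mitochondrial superoxide dismutase, 0.90), Noct (nocturnin, 0.89) and Hbegf (an EGF receptor ligand, 0.88), and Cxcl1 ranked 8 with 0.87. For Lcn2 they were the casein genes Csn1s1, Csn3 and Csn1s2b (0.93, 0.93 and 0.91), Dpyd (0.91) and Cd14, a receptor for lipopolysaccharide that LBP serves (0.91), and Lbp ranked 65 with 0.84. For Lbp they were Gne (0.94), Rasgef1c (0.93), Anxa8 (0.93), Ptgds (0.92) and Sqor (0.92).
For leukocyte Csf3r, over 31 rats and 11953 genes, they were Oas1k (0.81), Camp, the gene of the granule peptide cathelicidin (0.80), S100a8 (0.79), S100a9 (0.78) and Palm (0.75), and Cxcr2 ranked 9 with 0.72. For leukocyte Il1b they were Il1a, the other interleukin-1 ligand (0.89), Clec4e (0.88), Cd14 (0.87), Slc16a3 (0.86) and Cxcl1 (0.86).

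The ligand in epithelial columns was then set against the receptor in leukocyte columns of the same tumours. The epithelial columns also held fibroblast genes, and which cells the ligand RNA came from was not tested. Values were the mean log2(CPM + 1) of each rat's tumours with both classes of column. In the treatment experiment 19 rats had such tumours, and 10 pairs of genes were examined with two-sided permutation tests. Rats with more epithelial Csf3 had less leukocyte Csf3r and Cxcr2, but no pair passed after adjustment over the 10 pairs when all columns were used. Csf3 with Cxcr2 had r of -0.574 (permutation p = 0.0104, adjusted p = 0.104) and rho of -0.600 (p = 0.00794, adjusted p = 0.0563, permutation test). Csf3 with Csf3r had r of -0.474 (permutation p = 0.0420, adjusted p = 0.123) and rho of -0.577 (p = 0.0113, adjusted p = 0.0563, permutation test). Without P33 and P17, the 2 rats farthest from the median of Csf3, r was -0.399 for Cxcr2 and -0.331 for Csf3r, so that the linear relation leaned on them. For the 12 rats of batch 3 rho was -0.755 with Cxcr2 (adjusted p = 0.0150 by permutation) and -0.650 with Csf3r (adjusted p = 0.0425 by permutation). For the 12 rats of batch 2 rho was -0.427 and -0.280 (adjusted p = 0.754 for each by permutation), so the relation held its sign in both batches and passed in batch 3. Without P33 and P17, rho in batch 3 was -0.588 with Cxcr2 and -0.442 with Csf3r. Without P7 and P24, the rats farthest from the median of Csf3 in batch 2, rho in that batch was -0.212 and -0.600. Rats P8, P22, P24, P26 and P29 had such tumours in both batches, so the values by batch here and below are not independent of each other. With the mean of each treatment group removed, rho was -0.546 with Cxcr2 and -0.521 with Csf3r (adjusted p = 0.117 for each by permutation).

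Without the P22T2 columns, a choice made after seeing the data, Csf3 had rho of -0.649 with Cxcr2 and -0.604 with Csf3r (adjusted p = 0.0327 and 0.0355 by permutation, 19 rats). On the same columns r was -0.584 and -0.492 (adjusted p = 0.0820 and 0.0836 by permutation), so these pairs passed by rho and not by r.

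Epithelial Cxcl1 had r of -0.511 and rho of -0.533 with leukocyte Cxcr2, its receptor (permutation p = 0.0253 and 0.0203, adjusted p = 0.123 and 0.0677), and r was -0.380 without P7 and P17. With Csf3r it had r of -0.460 and rho of -0.505 (permutation p = 0.0490 and 0.0292, adjusted p = 0.123 and 0.0730), and r was -0.465 without those rats. Without the P22T2 columns rho was -0.567 with Cxcr2 and -0.539 with Csf3r (adjusted p = 0.0442 and 0.0481 by permutation), and r was -0.540 and -0.502 (adjusted p = 0.0836 for each by permutation). In batch 3 rho was -0.797 with Cxcr2 and -0.755 with Csf3r (adjusted p = 0.0150 for each by permutation), and in batch 2 it was -0.371 and -0.217 (adjusted p = 0.754 for each by permutation). S100a8 and S100a9 had r of -0.211 and -0.137 with epithelial Csf3 (adjusted p = 0.549 and 0.720 by permutation) and rho of -0.326 and -0.256 (adjusted p = 0.248 and 0.361 by permutation). Il1b in leukocytes, which encodes an inducer of Csf3, had r of 0.279 with epithelial Csf3 and 0.0464 with epithelial Cxcl1, and rho of 0.0316 and -0.0632 (adjusted p = 0.900 and 0.887 by permutation). With Lcn2 and Lbp leukocyte Il1b had r of -0.231 and -0.102, which became -0.235 without P34 and P36 and -0.684 without P4 and P28. Their rho was -0.404 and -0.456 (adjusted p = 0.151 and 0.102 by permutation), -0.797 and -0.720 in batch 3 (adjusted p = 0.0150 and 0.0226 by permutation) and -0.245 and -0.203 in batch 2 (adjusted p = 0.754 for each by permutation). Points share the tumour, the batch and the vehicle rats, and each library's CPM sum to the same total, so genes of 1 library are not independent.

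**Figure D5:**
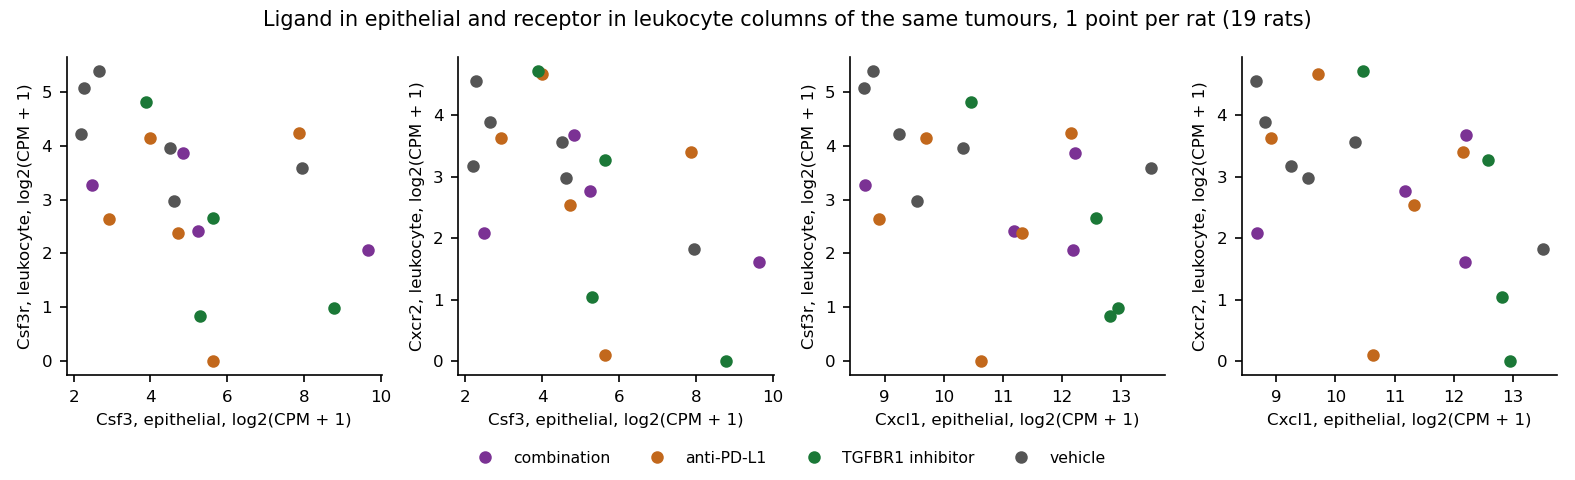
Csf3 or Cxcl1 in epithelial columns (x axis) against Csf3r or Cxcr2 in leukocyte columns (y axis) of the same tumours, as log2(CPM + 1), 1 point per rat, coloured by treatment. Spearman's correlation over the 19 rats is -0.577 for Csf3 with Csf3r, -0.600 for Csf3 with Cxcr2, -0.505 for Cxcl1 with Csf3r and -0.533 for Cxcl1 with Cxcr2.

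In the 7 rats with untreated tumours the linear relation of Csf3 with Csf3r rested on C9 and C11. Csf3 with Csf3r had r of -0.819 (exact permutation p = 0.0468, adjusted p = 0.139) and rho of -0.464 (exact permutation p = 0.302), and r was -0.209 without C9 and C11. Epithelial Lbp with leukocyte Il1b had r of -0.893 (exact permutation p = 0.00198, adjusted p = 0.0198) and rho of -0.893 (exact permutation p = 0.0123, adjusted p = 0.119), and r was -0.782 without C9 and C2. All leukocyte columns of untreated tumours are of batch 1, so no second batch was at hand for these rats.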

How the data were processed

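RNA-seq libraries of sorted rat mammary tumour cells were analysed from the table of read counts per gene that the authors deposited. Libraries were made from under 10 ng of RNA with the SMARTer v4 kit, per the labels' protocols. The submitters' processing notes name STAR, FastQC and build rn6. Which counting tool, strand setting or version was used is not given in the sources used here. Of 108 columns 107 were used and 1 was not. Column names matched 13 columns to a single sample, 91 to a tumour and 3 to a rat only. No pair of columns was identical.

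Counts were summed per rat within each class and tested with edgeR 4.0.16 in R 4.3.3 (TMM scaling, filterByExpr, robust quasi-likelihood F test, 4 conditions in a fit, Benjamini-Hochberg adjustment over all genes at 0.05). DESeq2 1.42.0, size factors, no filter, stricter classes, batch, and leaving out each rat were alternatives. Batch 2 alone, and correlations with condition means removed or without the columns matched to a rat only, were chosen after seeing the data. Correlations used log2(CPM + 1) and permutation tests with 100000 resamples, exact for 7 rats (scipy 1.17.1). The edgeR procedure was tested on simulated data with a preset spread. The floor of 3 counts, and totals per column, cover counting error only.

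The members and gene lists were chosen with earlier results of these data known. Named were the 9 members, passing list genes (there were none), Ptprc, Epcam, and the 5 genes with the highest Spearman rho to Csf3, Lcn2 and Lbp (epithelial) and to Csf3r and Il1b (leukocyte). Genes beyond this rule were chosen after their values were seen.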

Additional observations from a re-analysis of the deposited data

Results flagged for a closer look

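Of 50 groups of 4 to 10 rats examined, 4 held a rat whose gap to its nearest neighbour was large against the range of the group on the log2(CPM + 1) scale, and chance gives about 1 in 20. Epithelial Csf3 of combination rat P33, at 803 CPM, lay above the other 5 rats, of which the nearest had 28.8 CPM. Leukocyte Cxcr2 of untreated rat C9, at 149 CPM, lay above the other 6 rats, of which the nearest had 5.47 CPM. Leukocyte S100a9 of combination rat P23, at 17.4 CPM, lay below the other 5 rats, of which the nearest had 45.6 CPM. Leukocyte Il1b of inhibitor rat P21, at 91.2 CPM, lay below the other 4 rats, of which the nearest had 223 CPM.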

How the results depend on the processing

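Of the members' log2 fold changes under alternatives, 566 kept their direction and side of the threshold, 34 reversed and 2 passed where the main test did not. Those 2 were leukocyte S100a8 (-3.46) and S100a9 (-3.08) in combination rats with DESeq2, which also called 2 genes (combination) and 12 (inhibitor) in epithelial columns, and 335 (combination), 153 (anti-PD-L1) and 414 (inhibitor) in leukocyte columns. With batch as a covariate, reversed values were 0.23 for epithelial Csf3 (inhibitor), -0.45 for leukocyte Cxcl1 (combination) and -0.21 for leukocyte Il1b (anti-PD-L1). In batch 2 alone they were 0.98 for epithelial Csf3 (inhibitor), -3.29 for leukocyte Cxcl1 and -0.98 for Il1b (combination), -1.03 for Il1b (anti-PD-L1) and 0.087 for Cxcr2 (inhibitor). In batch 3 alone leukocyte S100a8, S100a9 and Cxcl1 had 0.63, 0.71 and 0.73 (anti-PD-L1). The causes were not tested.

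Leaving out 1 rat at a time, epithelial Csf3 ran from -4.41 to 1.55 (combination), -3.72 to 0.24 (anti-PD-L1) and -3.35 to 1.60 (inhibitor). Epithelial Cxcl1 ran from -1.51 to 0.036 (anti-PD-L1) and -0.22 to 1.15 (inhibitor), Lcn2 from -0.057 to 0.66 (anti-PD-L1) and -0.23 to 0.67 (inhibitor), and Lbp from -0.083 to 0.45 (combination) and -0.13 to 0.43 (anti-PD-L1). Leukocyte S100a8 and S100a9 kept their sign but ran from -4.14 to -0.71 and from -3.98 to -0.80 (anti-PD-L1), and epithelial Cxcl1 from -1.83 to -0.20 (combination). Leukocyte Cxcl1 ran from -2.11 to 0.71 (combination) and -2.39 to 0.046 (anti-PD-L1), and Il1b from -1.05 to 1.31 (combination) and -1.14 to 0.45 (anti-PD-L1). Counts of called genes in leukocyte columns ran from 0 to 42 (combination) and 0 to 297 (inhibitor), with the highest of both without vehicle rat P7.

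Of the same-tumour correlations 78 kept their side, 4 reversed and 18 passed where the main test did not. Reversed were Cxcl1 with Il1b at rho of 0.0559 (batch 3) and 0.0860 (condition means removed), and Csf3 with Il1b at -0.203 (batch 2) and, in untreated tumours with TMM scaling, 0.0714. The 18 were Csf3 and Cxcl1 with both receptors without the P22T2 columns (rho -0.539 to -0.649), Csf3 with Csf3r and Cxcr2 at a pseudocount of 0.1 CPM (rho -0.595 and -0.600), and Csf3 and Cxcl1 with both receptors and Lcn2 and Lbp with Il1b in batch 3 (rho -0.650 to -0.797) and with 1 value per tumour (rho -0.447 to -0.522), where tumours of a rat are not independent.

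No paired analysis was possible because each rat received 1 treatment and the labels give no replicate numbers shared across treatments. Depth limits what can be read of Csf3r, Cxcr2 and leukocyte Csf3, which had columns at 0.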
